A study of Vitis vinifera with 36 samples.

Results

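Genes of the cell cycle, of chromatin and of microtubules were followed in ovules and developing seeds of grapevine (Vitis vinifera). They are 98 of the 26688 probes on the array, taken from rows of the study's lists of differentially expressed genes wherever the annotation holds a word such as cyclin, kinesin, histone, tubulin, DNA polymerase, mitotic, chromatin, condensin or microtubule. The gene VIT_05s0094g00420 was set aside. Of the 98 probes, 87 entered only through the list of genes that differed between Red Globe and Thompson Seedless at pea size, and 11 through the list for post-bloom. The lists were read in part, so genes with the same words can be missing. Of the pea-size list 1996 rows were read, and the 1986 of them with values were all higher in Red Globe, so that direction comes from the rows read. The words chose them all, so a few members only share a word with the group, such as FtsH proteases and a tetracycline transporter. For 97 probes values could be tested. The histone H3 gene VIT_04s0044g00560 was left out because the scanner flagged its spots.

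Italia (IT) and Red Globe (RG) are seeded varieties, and Thompson Seedless (TS) is seedless. All vines stood in one field collection, with no hormone treatment. Stage S1 is pre-bloom, S2 post-bloom, S3 the pea-size berry and S4 veraison, the onset of ripening. Ovules or seeds were taken with 3 arrays for each variety and stage, 36 in all, which the design text describes as biological triplicates. TS was the only seedless variety analysed here, so a difference between RG and TS belongs to that pair of varieties. The samples were whole organs, and a fall in a transcript can mean fewer cells of a type or less RNA per cell, which cannot be told apart here. Autumn Royal was not analysed here.

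Cyclins bind cyclin-dependent kinases and carry the cell through its phases. B-type kinases of plants act around mitosis, while D-type cyclins act at the entry into the cycle. Core histones are made mostly while DNA is copied, condensin folds chromosomes for division, and kinesins and tubulins build the spindle and the phragmoplast that lays down the new plant cell wall. Many kinesins and tubulins also serve cells that do not divide. In seeds, the endosperm first multiplies its nuclei and then forms cells, and the embryo grows by division before storage and maturation. In stenospermocarpic grapes such as TS, fertilization takes place but the seed stops developing and remains as a trace.

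Values are log2 of the processed spot intensity, set relative to the 75th percentile of the same array, so 0 is the level of that percentile. They compare 1 gene between groups and not genes with each other. A gene was called when limma gave an adjusted p under 0.05 and the log2 difference was above 1 in size, over 23068 probes. A spot was taken as measured where the scanner software marked it well above background. The share of probes so marked ran from 38.7% to 90.1% in IT, from 68.1% to 85.7% in RG and from 68.9% to 87.7% in TS, and the lowest share belonged to IT S1 replicate 3. The defining ovule gene VviAGL11 was well above background on all 36 arrays.

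The values that chose the 87 members are the RG and TS values at S3, and they are given as a description. Across the 86 of these with values, the log2 difference of RG S3 minus TS S3 ran from 1.03 to 3.05, with a median of 1.59. Over all probes the median was 0.00, 13.5% exceeded 1 and 9.49% were called higher in RG. The members with the smallest difference were CDCA7 at 1.03, the D-type cyclin VIT_18s0001g07220 at 1.09 and the DNA replication factor C subunit VIT_02s0025g04140 at 1.098. Genes with the same words that were not among the rows read of that list included cyclin A3;1 at 1.11, the cell division cycle 7 kinase at 1.08 and histone H2A.4 at 0.98. All counts below refer to these 86 members unless the other 11 are named.

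In each variety the lowest values of the members lay at S4. In IT, the median member stood at -0.89, -0.78 and -0.42 on the S1 arrays in ascending order, at -1.02, -0.88 and -0.68 at S2, at -1.64, -0.73 and -0.38 at S3 and at -3.38, -2.98 and -2.96 at S4. In RG it stood between -0.36 and 0.27 at S1, between -0.01 and 0.33 at S2, between 0.42 and 0.64 at S3 and between -4.56 and -3.78 at S4. In TS it stood between -1.005 and 0.00 at S1, between -0.54 and -0.09 at S2, between -1.31 and -1.001 at S3 and between -4.04 and -2.86 at S4. No array of S4 reached the lowest array of an earlier stage in any variety.

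**Figure D1:**
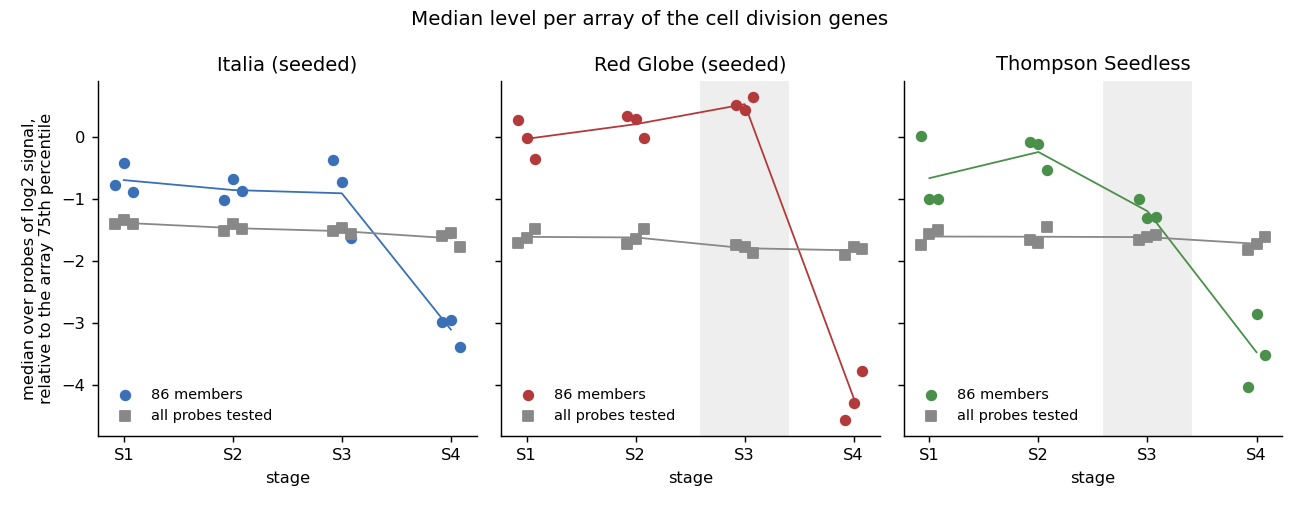
Median log2 level over the 86 members on each array, relative to the array's 75th percentile, by stage (S1 to S4) for IT, RG and TS, 1 point an array; the shaded S3 values of RG and TS chose the members. The S4 arrays lie lowest in each variety, from -3.38 to -2.96 in IT, -4.56 to -3.78 in RG and -4.04 to -2.86 in TS.

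S4 was the stage with the lowest mean for 66 members in IT, or 76.7%, where 34.5% of all probes had their lowest mean at S4. In RG it was the lowest for 81 members, or 94.2% against 30.3% of all probes. In TS it was the lowest for 64 members, or 74.4% against 26.2%, and S3 for the other 22. The highest mean lay at S1 for 41 of the 86 members in IT, where 33.8% of all probes had theirs at S1. It lay at S3 for 47 members in RG, against 22.0045% of all probes, and at S2 for 47 in TS, against 13.8%. The RG and TS shares rest in part on the S3 values that chose the members, while those of IT do not.

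**Figure D2:**
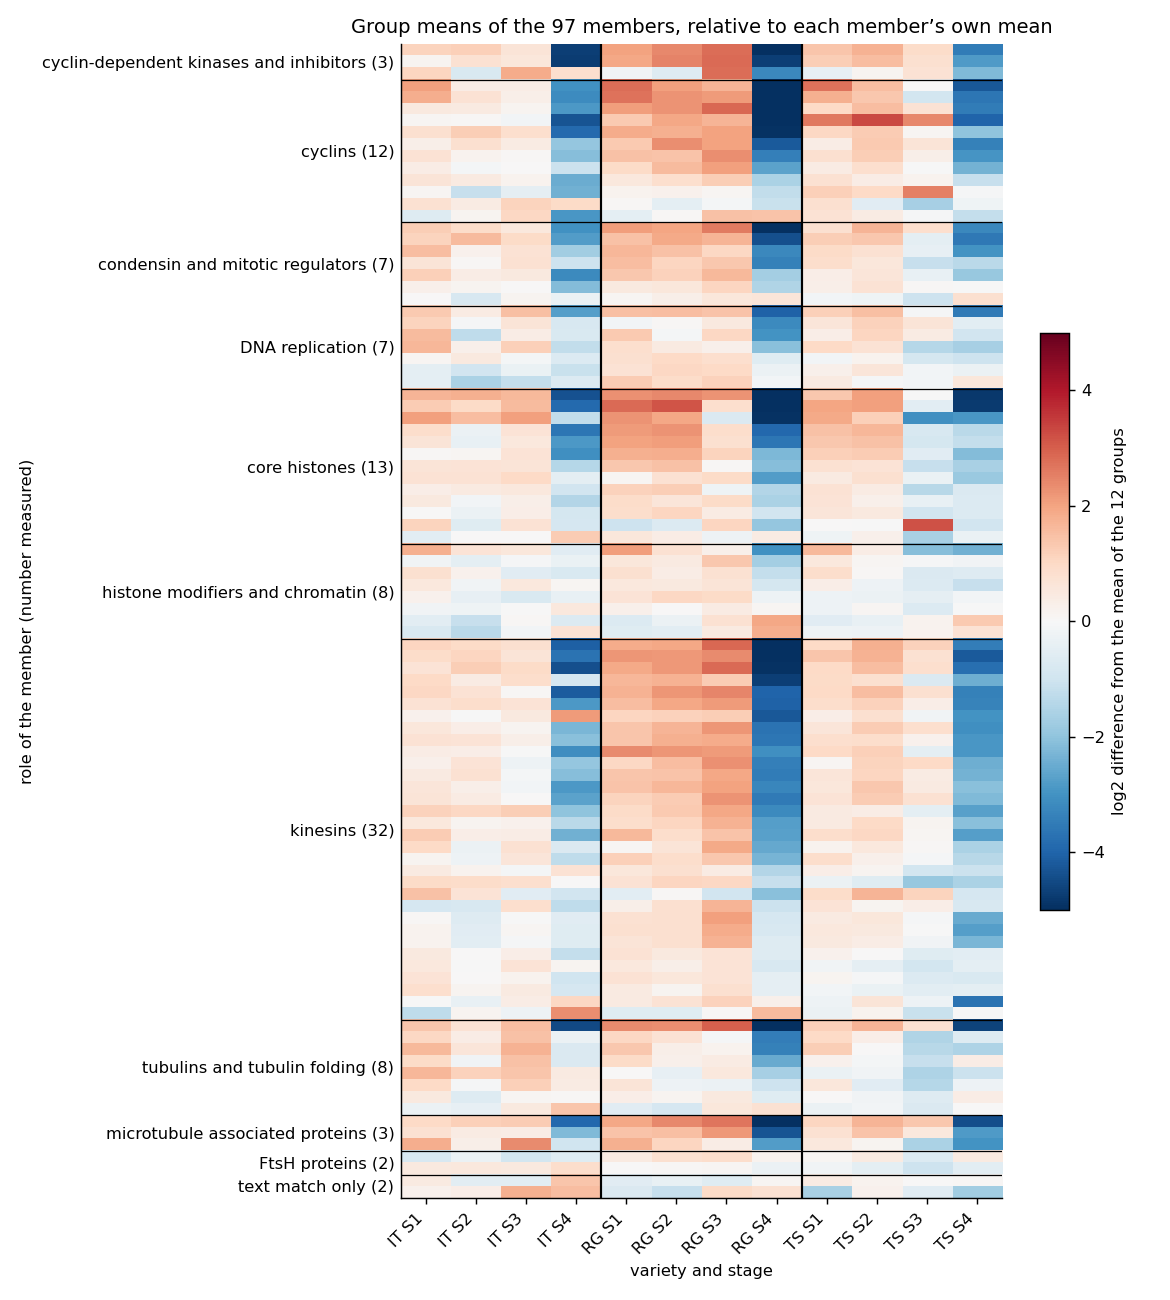
Mean log2 level of each member in each variety and stage, as the difference from that member's own mean over the 12 groups, with members in rows by role and groups in columns (IT, RG, TS, each S1 to S4); the colour scale ends at 5 in either direction. The S4 columns are the low ones for most cyclins, kinases, condensin subunits and histones, while some kinesins stay near their own mean there.

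IT took no part in choosing the members, so its stages test them. Between S2 and S1, 1 member was higher at S2 and 3 were lower, where 4.25% of all probes were called higher and 4.26% lower. Between S3 and S2, 4 members were higher at S3 and none lower, where 3.91% of all probes were called higher and 5.0% lower. Between S4 and S3, 56 members were lower at S4 and 3 higher, where 14.3% of all probes were called lower and 10.4% higher. The median member differed by -1.95 between S4 and S3, against 0.10 for all probes. In 64 members all 3 S4 arrays lay below all 3 S3 arrays, a pattern that 23.7% of all probes had. The split moved under another background correction, normexp on the median signals, to 28 lower and 2 higher.

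RG and TS were compared between S4 and S2, which leaves out the stage that chose the members. In RG, 72 members were lower at S4 and 2 higher, where 16.9% of all probes were called lower and 13.1% higher. In TS, 57 members were lower at S4 and 1 higher, where 13.9% of all probes were called lower and 11.9% higher. The median member differed by -3.63 in RG and by -2.72 in TS. The RG change differed from the TS change in 21 members by the limma interaction term, with 16 in which the RG change was the more negative and 5 in which it was the more positive. The background there was 5.91% and 4.7%. Of the 16, 5 were well above background on no RG S4 array, so for these the size of the RG change is not measured. The interaction count was 15 to 30 when 1 array was left out, with 26 more negative without RG S4 replicate 3 and 25 without TS S4 replicate 1. With no scaling between arrays it was 2 more positive and 0 more negative, and with normexp 2 and 3.

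At S1 none of the 86 members was called between RG and TS, where 2.74% of all probes were called higher and 2.87% lower. Still, 78 members had a positive difference, with a median of 0.60 against 0.01 for all probes. In 11 members all RG S1 arrays lay above all TS S1 arrays and in 0 all lay below, against 8.8% and 7.48% of all probes. At S2, 2 members were called higher in RG and none lower, where 1.94% of all probes were called higher and 3.02% lower. The median member differed by 0.47, against 0.09 for all probes. In 30 members all RG S2 arrays lay above all TS S2 arrays and in 1 all lay below, against 12.2% and 10.4% of all probes. The 2 called members were named after their values were seen. HDA6 (VIT_03s0091g00620), a histone deacetylase, had 0.49, 0.35 and 0.15 in RG S2 and -1.04, -0.72 and -1.15 in TS S2, a difference of 1.30 (adjusted p = 0.012, limma). The kinesin VIT_17s0000g03700 had -1.79, -1.73 and -1.78 in RG S2 and -4.02, -3.55 and -2.72 in TS S2, a difference of 1.66 (adjusted p = 0.023, limma). RG and TS arrays did not overlap for either gene. The count of members called at S2 was 0 without RG S2 replicate 1, RG S2 replicate 2 or TS S2 replicate 1, and 1 without TS S2 replicate 2.

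At S4, 18 members were lower in RG than in TS and 6 were higher, where 9.96% of all probes were called lower and 6.93% higher. The median member differed by -0.68, and 68 of the 86 had a negative difference. In 22 members all RG arrays lay below all TS arrays, which 16.1% of all probes did, and in 7 all lay above, which 13.1% did. RG and TS arrays shared slides, and 17 of the 18 lower members were lower in RG in each of the 3 pairs on the same slide. All 6 higher members were higher in each pair. These pairs are the arrays that gave the calls, so the agreement is no separate test. Of the 62 members not called, 19 were lower and 3 higher in RG in each pair. Of the 18, 6 were well above background on no RG S4 array and 8 on all of them. With only the RG and TS arrays of S4 in the fit, 7 members were lower and 4 higher, and with the replicate number as a block in that fit 9 were lower and 5 higher; among the named genes, CDKB1;2, CDKB2;1, cyclin B2;4, CDCA7 and the MAP65 gene VIT_16s0022g01820 were then not called. With no scaling 6 were lower and 2 higher, and with normexp 3 and 3.

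**Figure D3:**
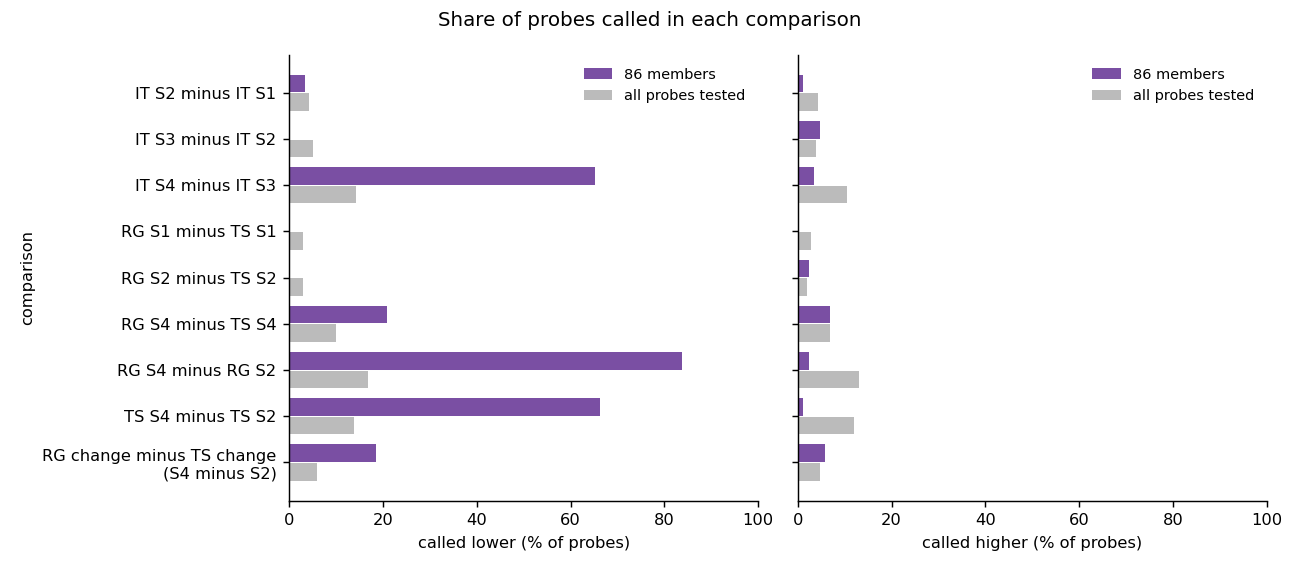
Percent of the 86 members and of all 23068 probes called lower (left panel) or higher (right panel) in each comparison tested with limma. For S4 minus S3 in IT the members' lower share is 65.1% against 14.3% of all probes, and for RG minus TS at S4 it is 20.9% against 9.96%.

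The counts by role that follow stand against the shares of all probes called lower, which were 14.3% in IT between S4 and S3, 16.9% in RG and 13.9% in TS between S4 and S2, and 9.96% between RG and TS at S4. No test compared the roles with each other. All 3 members that are cyclin-dependent kinases or their inhibitors fell in RG and in TS between S4 and S2, and 2 of them fell in IT between S4 and S3. CDKB1;2 (VIT_08s0056g00210), a mitotic kinase of plants, had -4.02, -4.14 and -4.52 on the IT S4 arrays and 1.48, 1.35 and 0.46 on the IT S3 arrays, a difference of -5.32 (SE 0.49, adjusted p = 4.2e-09, limma). In RG it had -4.19, -4.25 and -4.12 at S4 and 3.37, 3.31 and 2.36 at S2, a difference of -7.20. In TS it had -2.92, -0.91 and -3.08 at S4 and 2.47, 2.35 and 1.44 at S2, a difference of -4.39. None of these pairs of groups overlapped, and all 3 falls were called.

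CDKB2;1 (VIT_18s0122g00550), the other B-type kinase, had -6.18, -6.01 and -4.78 in RG S4, where 1 array was well above background, and -4.75, -1.38 and -3.39 in TS S4. It fell by 8.37 in RG, a size that rests in part on the 2 dim arrays, and by 5.26 in TS between S4 and S2. RG S4 minus TS S4 was -2.48 (adjusted p = 0.0043, limma) and for CDKB1;2 it was -1.88 (adjusted p = 0.0066, limma), so both kinases were lower in RG. TS S4 replicate 2 had the highest TS value of both genes at S4, -0.91 for CDKB1;2 (VIT_08s0056g00210) and -1.38 for CDKB2;1. Without it the differences were -1.19 (adjusted p = 0.095, limma) and -1.58 (adjusted p = 0.067, limma), and neither was called. The third of this role, ICK5 (VIT_03s0063g00670), an inhibitor of these kinases, went another way in IT. It had -1.25, -1.57 and -2.35 at IT S3 against -3.88, -5.18 and -3.93 at IT S2, a rise of 2.61 (adjusted p = 0.0033, limma), and its fall to IT S4 of -0.99 was not called. Its falls between S4 and S2 depended on the background correction. With 1 RG S4 array and no TS S4 array well above background, it differed by -2.56 in RG. In TS it was 5.08-fold lower with each dim array at the higher of its own signal and the lowest one well above background there. With normexp the differences were -0.05 (adjusted p = 0.95, limma) in RG and 0.13 (adjusted p = 0.81, limma) in TS.

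Of the 9 cyclins chosen at S3, 7 fell in IT between S4 and S3, 8 in RG and 8 in TS between S4 and S2, and 4 were lower in RG than in TS at S4. Cyclin B2;4 (VIT_03s0038g02800), of the class that binds kinases in mitosis, had -7.06, -5.93 and -4.76 in RG S4, with 1 array well above background, against -2.29, -2.41 and -4.24 in TS S4. The groups did not overlap, and the difference was -2.93 (SE 0.47, adjusted p = 4.3e-05, limma). In IT it differed by -4.73 between S4 and S3. The other 3 lower in RG at S4 were chosen after their values were seen. The D-type cyclins CYCD3;1 (VIT_18s0001g09920) and VIT_07s0129g01100 were well above background on no RG S4 array and on 2 TS S4 arrays. For a group with no such array a floor estimate is given. It takes each dim array at the higher of its own signal and the lowest signal that was well above background there. The floor estimate is not a lower limit, since a probe can be dim at a signal above that lowest one. Other processing gave smaller differences for some genes. CYCD3;1 was lower (adjusted p = 0.019, limma), with a floor estimate of 2.71-fold, and so was VIT_07s0129g01100 (adjusted p = 0.014, limma), with 2.10-fold. The B-type cyclin VIT_08s0040g00930 differed by -1.70, its RG and TS arrays overlapped, and 1 array in each group was well above background.

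At S4, CYCP2;1 (VIT_12s0059g02480) stood higher in RG than in TS. It is a P-type cyclin, a class that in Arabidopsis has been tied to nutrient signals, and it came in through the post-bloom list as well as that of pea size. It had 0.59, -0.01 and -0.30 in RG S4 against -2.22, -2.40 and -2.98 in TS S4, a difference of 2.62 (SE 0.40, adjusted p = 2.0e-05, limma). In IT it had -4.13, -4.26 and -4.34 at S4 against -0.63, -0.45 and 0.13 at S3, a difference of -3.93. At S4 all RG arrays lay above and all IT arrays below those of TS; IT was not tested against TS.

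Among condensin subunits and mitotic regulators, 6 of 7 fell in IT, 6 in RG and 5 in TS. MAD2 (VIT_01s0010g02430) holds back the separation of chromosomes until the spindle is attached. It had -6.79, -7.42 and -7.61 in RG S4, with no array well above background, and -5.05, -2.74 and -4.58 in TS S4, where all 3 were. MAD2 was lower in RG S4 than in TS S4 (adjusted p = 2.2e-05, limma), with a floor estimate of 4.04-fold. Over 19 alternative fits (other processing or 1 array left out) it differed by -3.62 to -0.46, and the call was lost in 2. It was also lower at RG S4 than at RG S2, with a floor estimate of 146-fold and differences from -8.87 to -3.62 over 19 alternative fits. In IT it differed by -3.56 between S4 and S3.

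Condensin subunit 1 (VIT_08s0007g05500) had -7.32, -6.66 and -7.03 in RG S4, none of them well above background. It was lower at RG S4 than at RG S2, with a floor estimate of 43.2-fold and differences from -6.84 to -1.93 over 19 alternative fits. In TS S4 it had -7.32, -5.03 and -6.16, with 1 array well above background, and RG S4 against TS S4 was not called (adjusted p = 0.17, limma). CDCA7 (VIT_07s0255g00040), a chromatin protein that human cells make with the cell cycle, was lower in RG S4 than in TS S4 by a difference of -1.48 (adjusted p = 0.0028, limma). The member annotated as mitotic phosphoprotein N' end (VIT_09s0002g03770) did not fall in a called comparison. It differed by 0.29 between S4 and S2 in RG, which was not called, and was higher by 1.01 in TS, a difference that was 0.94 without TS S2 replicate 2, 0.93 without TS S4 replicate 1 and -0.22 with no scaling.

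**Figure D4:**
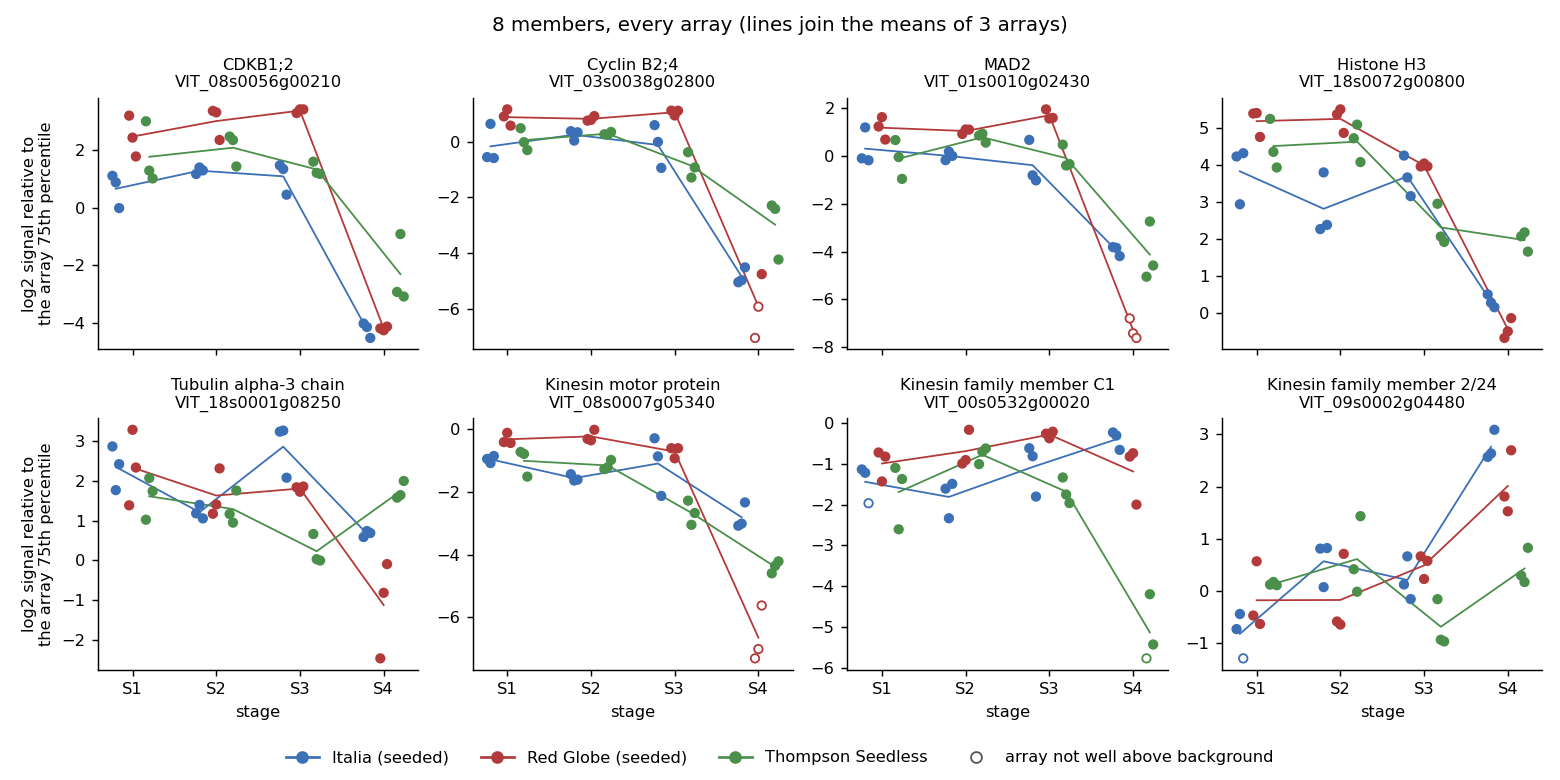
Log2 level on each of the 36 arrays, relative to the array's 75th percentile, for selected members by stage in IT, RG and TS; filled points are well above background and open points are not. The RG S4 points of MAD2 are all open, between -7.61 and -6.79, while those of TS S4 are filled, between -5.05 and -2.74.

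Of the 5 DNA replication genes chosen at S3, 2 fell in IT, 4 in RG and 3 in TS, and none differed between RG and TS at S4. DNA polymerase alpha (VIT_07s0031g00470), which starts each new DNA strand, had -4.50, -4.61 and -4.12 in IT S4 against 0.63, 0.10 and -1.18 in IT S3, a difference of -4.26 (SE 0.41, adjusted p = 8.2e-09, limma). Its fall between S4 and S2 was -5.57 in RG and -5.03 in TS, with 2 RG S4 arrays and 1 TS S4 array well above background. The other 2 replication genes came from the post-bloom list. PSF2 (VIT_16s0039g01780), a subunit of the GINS complex that helps to open DNA, had no array well above background in RG S4. It was lower there than in TS S4 (adjusted p = 1.3e-05, limma), with a floor estimate of 2.86-fold. Over 19 alternative fits it differed by -2.85 to -0.29, and the call was lost in 2. CDT1A (VIT_07s0005g03090), annotated as a kinase and named like a factor that licenses DNA for copying, was also lower in RG S4 (adjusted p = 0.035, limma). Its floor estimate was 1.58-fold, with 1 TS array well above background, and it differed by -2.29 to -0.22 over 19 alternative fits. The CDT1A call was lost on leaving out any of the 6 arrays but TS S4 replicate 1, with adjusted p from 0.059 to 0.12 in limma.

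Core histones, which package DNA, have near-identical copies that probes may not tell apart. Of 12, 10 fell in IT, 11 in RG and 9 in TS. The H3 gene VIT_18s0072g00800 had 0.50, 0.27 and 0.15 in IT S4 against 4.26, 3.67 and 3.16 in IT S3, a difference of -3.39. It had -0.68, -0.50 and -0.14 in RG S4 against 2.07, 2.18 and 1.66 in TS S4, a difference of -2.41 (SE 0.41, adjusted p = 8.8e-05, limma). The H3 gene VIT_00s0160g00180 differed by -2.58 between RG and TS at S4. A further H3 gene, VIT_04s0023g03120, named after its values were seen, rose in IT instead. It had 4.25, 4.06 and 4.71 in IT S4 against 3.56, 3.03 and 2.76 in IT S3, a difference of 1.22 (adjusted p = 0.00092, limma).

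Histone modifiers and chromatin proteins change or read the packaging of DNA. None of the 6 chosen at S3 was called in IT between S4 and S3, 5 fell in RG and 1 in TS between S4 and S2. CHR4 (VIT_04s0023g00030), a chromatin remodeller, had -3.79, -3.64 and -3.48 in RG S4 against -1.73, -2.00 and -2.59 in TS S4, a difference of -1.53 (SE 0.29, adjusted p = 3.0e-04, limma). In IT it differed by -0.29 between S4 and S3, which was not called. From the post-bloom list, the histone methyltransferase ASHR2 (VIT_01s0150g00550) was higher in RG S4 than in TS S4 by 1.12 (adjusted p = 0.0078, limma). For the histone deacetylase HD2C (VIT_03s0132g00020) of the same list, RG S4 minus TS S4 was 0.63 and not called. Its arrays had 4.80, 4.31 and 3.69 in RG S4 against 2.26, 2.30 and 1.64 in RG S2, given as a description because S2 values chose it.

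Kinesins, motor proteins that move along microtubules, were the largest role. Of 31, 22 fell and 2 rose in IT between S4 and S3, 27 fell and 1 rose in RG, and 23 fell and none rose in TS between S4 and S2. Between RG and TS at S4, 3 were lower and 5 higher, so 5 of the 6 members higher in RG were kinesins. The lower share of the kinesins was 9.68%, near the 9.96% of all probes, and the higher share was 16.1% against 6.93%. The kinesin C1 gene VIT_00s0532g00020, of a family whose members move toward the minus end of microtubules, had -0.82, -0.74 and -2.00 in RG S4 against -5.77, -4.20 and -5.43 in TS S4, where 2 arrays were well above background. The groups did not overlap, and the difference was 3.95 (SE 0.42, adjusted p = 8.0e-08, limma). In IT it had -0.23, -0.30 and -0.66 at S4 and -0.62, -0.81 and -1.80 at S3, a difference of 0.68 that was not called. It fell by 4.36 in TS between S4 and S2, while in RG the change of -0.50 was not called.

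The kinesin VIT_08s0007g05340 went the opposite way between RG and TS. It had -7.31, -7.02 and -5.63 in RG S4, none well above background, against -4.60, -4.36 and -4.22 in TS S4. It was lower in RG (adjusted p = 4.6e-05, limma), with a floor estimate of 3.02-fold. Over 19 alternative fits it differed by -2.77 to -0.36, and the call was lost in 3. FRA1 (VIT_07s0031g00130), a kinesin that in Arabidopsis takes part in laying down cell walls, had -1.48, -0.60 and -1.60 in IT S3 against -2.65, -2.94 and -2.99 in IT S2, a rise of 1.63 (adjusted p = 0.0041, limma). It fell again by 2.11 between IT S4 and IT S3. The kinesin VIT_07s0205g00140 differed by -1.48 between IT S4 and IT S3 (adjusted p = 0.0050, limma), by -1.10 without IT S4 replicate 3, when it was not called, and by 0.43 with normexp. It was well above background on no array of RG S4 or TS S4.

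The remaining kinesins were named after their values were seen. The 3 genes VIT_07s0005g00940, VIT_02s0033g00740 and VIT_13s0019g00970 were higher in RG S4 than in TS S4 by 1.95, 1.68 and 1.65, with no overlap of arrays, although each fell in RG and in TS between S4 and S2. For VIT_02s0033g00740, 1 TS S4 array was well above background. Whether their probes tell these 3 genes apart was not tested. VIT_09s0002g04480, annotated as kinesin 2/24, rose at S4 in both seeded varieties. It had 2.57, 2.64 and 3.09 in IT S4 against 0.13, 0.67 and -0.15 in IT S3, a difference of 2.55 (adjusted p = 1.7e-05, limma), and 1.81, 1.53 and 2.70 in RG S4 against -0.58, -0.64 and 0.71 in RG S2, a difference of 2.18. In TS the change between S4 and S2 was -0.18 and not called. A second kinesin C1 gene, VIT_19s0014g05070, had 2.19, 1.95 and 2.07 in IT S4 against 0.96, 0.75 and -0.49 in IT S3, a rise of 1.67 (adjusted p = 0.023, limma), while it fell by 5.39 between S4 and S2 in RG and by 3.76 in TS.

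**Figure D5:**
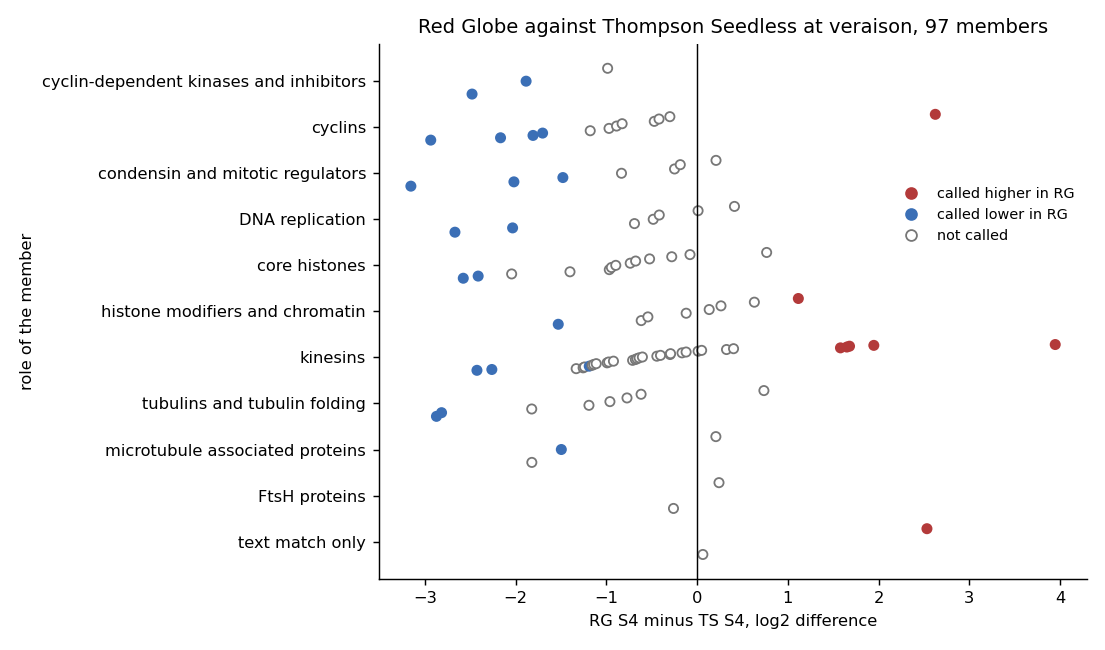
Log2 difference of RG S4 minus TS S4 for each member by role, 1 point a member, with members called by limma filled (blue lower in RG, red higher in RG) and the others open. The 5 called kinesins right of 0 run from 1.58 to 3.95, and the called cyclins, kinases and core histones lie left of 0 except CYCP2;1 at 2.62. Of the 20 called lower, 8 have no RG S4 array well above background, so their points do not measure the size of the difference.

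Tubulins are the subunits of microtubules. Of 7, 4 fell in IT between S4 and S3, 5 fell in RG and 1 in TS between S4 and S2. The TS share of 14.3% was near the 13.9% of all probes. Tubulin alpha (VIT_03s0088g00380) had -2.45, -1.26 and -0.52 in RG S4 against 1.14, 0.84 and 2.24 in TS S4, a difference of -2.82 (SE 0.41, adjusted p = 1.1e-05, limma). Tubulin alpha-3 (VIT_18s0001g08250) had -2.47, -0.82 and -0.09 in RG S4 against 1.58, 1.65 and 2.00 in TS S4, a difference of -2.87 (adjusted p = 6.0e-05, limma). Neither gene's arrays overlapped between the varieties. In TS their changes between S4 and S2 were -0.97 and 0.45, and neither was called. Alpha-3 also rose by 1.65 in IT between S3 and S2 (adjusted p = 0.025, limma), a call lost without IT S2 replicate 1 or 3 or IT S3 replicate 1 or 2, with differences from 1.45 to 1.64 and adjusted p from 0.073 to 0.13 in limma.

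Misato (VIT_07s0197g00050), annotated as a gamma tubulin, stayed under the size threshold in each single comparison named here. It had -4.17, -3.80 and -3.80 in RG S4 against -2.73, -3.06 and -3.09 in TS S4, a difference of -0.96. The 3 microtubule associated proteins were called lower in IT between S4 and S3 and in RG and TS between S4 and S2. EB1 (VIT_07s0129g01080), which rides on growing microtubule ends, was on no RG S4 array well above background. It was lower at RG S4 than at RG S2, with a floor estimate of 155-fold and differences from -9.17 to -3.77 over 19 alternative fits. In IT it had -4.99, -4.68 and -5.84 at S4 against 0.27, 0.26 and -0.50 at S3, a difference of -5.18. RG S4 minus TS S4 was not called for EB1 (adjusted p = 0.057, limma), with TS S4 arrays at -7.52, -2.96 and -6.52, of which 1 was well above background.

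Of the MAP65 proteins, which cross-link microtubules in the spindle and phragmoplast, VIT_16s0022g01820 was lower in RG S4 than in TS S4, with a difference of -1.50 (adjusted p = 0.021, limma). Its RG arrays at -6.04, -6.25 and -4.29 overlapped the TS arrays at -4.95, -3.28 and -3.86, and the call was lost without RG S4 replicate 1 or 2 or TS S4 replicate 2 or 3, with differences from -1.41 to -1.12. VIT_15s0048g00860 rose by 2.07 in IT between S3 and S2 (adjusted p = 0.042, limma), a call lost on leaving out any of the 6 arrays but IT S3 replicate 3, with differences from 1.88 to 2.25, and fell by 3.37 between S4 and S3. It was well above background on 1 RG S4 array and on no TS S4 array. Between S4 and S2 it differed by -3.84 in RG, and the floor estimate in TS was 4.15-fold lower. With normexp the differences were -0.54 (adjusted p = 0.43, limma) in RG and 0.20 (adjusted p = 0.71, limma) in TS. That of IT between S4 and S3 was then -0.80 (adjusted p = 0.12, limma).

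Members that share only a word with the group were few. The FtsH proteases, which in plants act in plastids and mitochondria, differed by 0.42 (VIT_09s0002g03880) and 0.28 (VIT_14s0083g00530) between IT S4 and IT S3, and neither was called. The tetracycline transporter gene VIT_18s0001g00800 had 0.52, 0.58 and 1.45 in RG S4 against -2.59, -1.74 and -0.72 in TS S4, a difference of 2.53 (SE 0.56, adjusted p = 0.0014, limma). Between S4 and S2 it rose by 1.95 in RG and fell by 1.98 in TS, and its -0.22 between IT S4 and IT S3 was not called. The RG call was lost without RG S2 replicate 1, with a difference of 1.44 (adjusted p = 0.069, limma). The TS call was lost without TS S4 replicate 1, with a difference of -1.53 (adjusted p = 0.068, limma). CNNM4 (VIT_03s0088g00990), a metal transporter named cyclin-M4, rose by 1.92 in IT between S4 and S3 (adjusted p = 8.7e-05, limma).

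The 11 members of the post-bloom list were tested only at stages that did not choose them. In IT, 5 of them fell and 1 rose between S4 and S3. Among the 5 were a D-type cyclin (VIT_01s0026g00710), with a difference of -1.94 (adjusted p = 0.0055, limma), and the histone H2A gene VIT_00s0259g00020 at -1.56 (adjusted p = 0.025, limma), with 1 IT S4 array well above background. The H2A call was lost without IT S3 replicate 1, IT S3 replicate 3 or IT S4 replicate 3, with differences from -1.56 to -0.97, and with normexp the difference was 0.82. At S4, 2 were lower in RG than in TS, PSF2 and CDT1A, and 2 were higher, CYCP2;1 and ASHR2.

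Further genes of cell division were set beside the members, 53 with values. Of these, 28 came from the same pea-size list as the members and 25 from a list of expression profiles of genes that differed at S3, whose choice also used IT values at S3, so they are not an independent set. As a description, in IT 24 were called lower and 1 higher at S4 than at S3, with a median of -1.05, where 14.3% of all probes were called lower and 10.4% higher. Between S4 and S2, 36 fell and 1 rose in RG, where 16.9% of all probes fell and 13.1% rose, and 32 fell and 1 rose in TS, where 13.9% fell and 11.9% rose. At S4, 12 were lower in RG than in TS and none was higher, with a median of -0.37, where 9.96% of all probes were lower and 6.93% higher. Among the 12, named after their values were seen, the mitotic kinase Aurora-1 and the replication helicase subunit MCM3 were well above background on no RG S4 array. Their floor estimates were 5.77-fold and 3.41-fold lower there. The kinetochore protein NUF2 differed by -2.12. KNOLLE, a syntaxin of the forming cell plate, differed by -5.67 between IT S4 and IT S3, and its RG S4 minus TS S4 of -1.15 was not called.

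Genes taken as markers of seed parts or of green tissue moved at the same time. Their value as markers in these samples was not tested. Most of the photosystem genes came from the list of genes that differed between seeded and seedless varieties at post-bloom. The S2 values of these varieties thus took part in choosing them. The summed log2 level of the ovule genes VviAGL11 and INO lay between 5.79 and 6.19 in RG S4 and between 0.64 and 2.60 in TS S4, and between 5.18 and 6.23 in IT S4 against 4.53 to 4.998 in IT S3. INO was well above background on no array of RG S4 or TS S4. The 7 genes that share the annotation protease inhibitor, seed storage or lipid transfer protein summed to between 4.19 and 5.18 in RG S4 and between 4.68 and 5.49 in TS S4. In IT they summed to between 4.82 and 5.56 at S4 against 8.04 to 8.59 at S3. That label names a protein family and does not show that they are storage proteins. The 25 genes with photosystem in their annotation, among them some annotated for its accumulation or assembly, summed to between 6.66 and 6.91 in RG S4. They summed to between 7.26 and 7.56 in TS S4, and to between 5.50 and 5.85 in IT S4 against 7.76 to 8.63 in IT S3. Of the 7 genes of that family, 1 was called higher and 2 were called lower in RG S4 than in TS S4, and 7 were called lower in IT S4 than in IT S3. Of the 25 photosystem genes, 0 were higher and 7 lower in RG S4, and 17 were lower in IT S4. Among all probes, the shares for RG S4 against TS S4 were 6.93% higher and 9.96% lower. For IT S4 against IT S3, the lower share of all probes was 14.3%. The part of these cell types in the members' changes was not tested.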

How the data were processed

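RNA from ovules or seeds was hybridized to a custom 1-colour grapevine array, 36 arrays in all. The deposited files hold spot intensity, background-subtracted and detrended within each array by Agilent Feature Extraction, version 10.7.1.1 per the file headers. The 75th percentile scaling that the authors' methods name was not in the deposited values: 99.15% of the matrix values lay within 0.1% of the unscaled intensity. For each of 26688 probes, the mean of unflagged spots was put on the log2 scale relative to its array's 75th percentile. Tested were the 23068 probes that 1 group or more had well above background on its 3 arrays. The 124 probes with no unflagged spot on some array were left out. One mean per group was fitted over the 36 arrays (limma 3.58.1 in R 4.3.3, 24 residual degrees of freedom, two-sided), with Benjamini-Hochberg adjustment over all probes. This step was checked on simulated data in which arrays varied independently, so the check does not cover arrays that deviate together. The methods' t-test, run here with p 0.05 and fold 2, was an alternative, as were other scalings, normexp with an offset of 50, slide and replicate blocks and leaving out each array. The deposited flags served to mark spots. For a single gene, 3 against 3 arrays allow an exact permutation p of 0.1 at the smallest. The p-values measure the spread between these arrays.

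Members and lists were chosen with earlier results of these data known. Members were grouped by annotation, and named were all of a role of 5 or fewer and, in larger roles, the 2 with the lowest adjusted p in IT S3 minus IT S2 and in RG S4 minus TS S4. Any other gene is said to be chosen after its values were seen. The annotation pairs each probe with a gene of the 12X draft genome. RG and TS arrays lay on 7 shared slides and IT on 5 others. Arrays of RG and TS with the same number deviated from their group means together (correlations 0.477 to 0.804 over 9 pairs between varieties and 0.379 to 0.640 over 6 between stages). In IT the correlations ran from -0.14 to 0.38 over 9 pairs. The highest was that of replicate 1 between S1 and S2, and the next was 0.10. The RG against TS comparisons at S2 and S4 share arrays with the S4 against S2 comparisons. Array number limits the precision.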

Additional observations from a re-analysis of the deposited data

Results flagged for a closer look

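The change between S4 and S2 differed between RG and TS in 21 of the 86 members by the limma interaction term, and 13 named genes were among them. MAD2 and the kinesin VIT_08s0007g05340 were well above background on no RG S4 array. Their RG change minus TS change, fitted at -3.42 for MAD2 (adjusted p = 0.0013, limma) and -3.19 for the kinesin, rests on dim signal there. With those arrays at the lowest signal well above background or their own, whichever was higher, it was -2.28 and -2.52. Each is a floor estimate and not a limit. For genes with a measured group at RG S4, the RG change minus the TS change was -3.47 for cyclin B2;4 (adjusted p = 8.6e-04), -2.81 for CDKB1;2 (adjusted p = 0.0082) and -3.11 for CDKB2;1 (adjusted p = 0.019), all by limma, with 1 of 3 RG S4 arrays well above background for cyclin B2;4 and for CDKB2;1. It was -3.16 and -3.03 for the H3 genes VIT_00s0160g00180 and VIT_18s0072g00800, and -1.89 for CHR4. It was -3.22 for tubulin alpha, -3.21 for tubulin alpha-3 and -1.28 for Misato. It was 3.86 for the kinesin C1 gene VIT_00s0532g00020, with 2 TS S4 arrays well above background. For the tetracycline transporter it was 3.93. These contrasts use the S4 arrays that also stand in the RG against TS comparison.

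Between S4 and S2, 3 members moved in opposite directions in IT and RG with no overlap of arrays in either variety, and this difference was not tested. ICK5 differed by 1.62 in IT and by -2.56 in RG, where 1 S4 array was well above background. The kinesin C1 gene VIT_19s0014g05070 differed by 2.17 in IT and by -5.39 in RG. Misato differed by 0.71 in IT and by -0.75 in RG.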

How the results depend on the processing

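Counts are of the 86 members, higher and lower together, unless stated. With no scaling between arrays, the count was 0 for IT S2 minus S1, 1 for IT S3 minus S2, 0 for RG minus TS at S2, 8 for RG minus TS at S4 (2 higher, 6 lower) and 2 for the difference of changes. Scaling by the probes well above background gave 0 for IT S2 minus S1, 0 for RG minus TS at S2 and 13 for the difference of changes, and quantile normalization gave 7 for IT S3 minus S2. With normexp the counts were 1, 30, 1, 6 and 5 for IT S2 minus S1, IT S4 minus S3, RG minus TS at S2, RG minus TS at S4 and the difference of changes. Of the 59 members called in IT S4 minus S3, 8 had the opposite sign there, and of the 58 in TS S4 minus S2, 5 did. The 24 called between RG and TS at S4 kept their sign under the 5 alternative values tried. With no scaling the median of all probes moved by -1.01 in IT S4 minus S3, by -0.54 in RG S4 minus S2, by -1.23 in TS S4 minus S2 and by 0.13 in RG minus TS at S4, and with normexp by 0.38 in IT S4 minus S3.

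With probes well above background on all arrays, 31 members were left, of which 0 were called in IT S2 minus S1, 1 in IT S3 minus S2, 19 in IT S4 minus S3, 1 and 7 in RG minus TS at S2 and S4, 25 in RG S4 minus S2, 16 in TS S4 minus S2 and 9 in the difference of changes; fewer members could be called. The methods' t-test after adjustment gave 0, 0 and 7 for the IT steps in order, 0 and 0 for RG minus TS at S2 and S4, 34 in RG and 10 in TS for S4 minus S2, and 0 for the difference of changes. Unadjusted, and chosen after the data were seen, it gave 8 for IT S2 minus S1, and 1 and 14 for RG minus TS at S1 and S4. Slide as a random block gave 11 for IT S2 minus S1, 4 for RG minus TS at S1 and 34 for the difference of changes, and as a fixed block, added after the data were seen, 11 and 2 for the first pair. When a fit held no arrays but those it compared, RG minus TS gave 0 at S2 and 11 at S4, and the difference of changes 11. The replicate block in such fits, also added later, gave 0 for IT S2 minus S1, and 0 and 14 for RG minus TS at S2 and S4. The replicate block over all 36 arrays gave 26 for RG minus TS at S4 and 23 for the difference of changes, and it changed no call of a named gene. The cause of these moves was not tested.

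Leaving out 1 array gave 1 to 5 for IT S2 minus S1, 2 to 6 for IT S3 minus S2, 52 to 59 for IT S4 minus S3, 0 to 2, 0 to 3 and 18 to 32 for RG minus TS at S1, S2 and S4, 71 to 73 in RG and 54 to 62 in TS for S4 minus S2, and 15 to 30 for the difference of changes. For IT S2 minus S1 it was 1 without IT S1 replicate 3, IT S2 replicate 1 or IT S2 replicate 3 and 2 without IT S1 replicate 1. For IT S3 minus S2 it was 2 without IT S2 replicate 3, IT S3 replicate 1 or IT S3 replicate 2. For RG minus TS at S1 it was 1 without RG S1 replicate 2 and 2 without TS S1 replicate 1.

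Of the named genes, the following changed sign with normexp: PSF2 to 0.32, H2A to 0.82 and the kinesin VIT_07s0205g00140 to 0.43 in IT S4 minus S3, and ICK5 to 0.13, that kinesin to 0.43 and the MAP65 gene VIT_15s0048g00860 to 0.20 in TS S4 minus S2. With no scaling the mitotic phosphoprotein differed by -0.22 in TS. Of 1563 recomputed calls of named genes, 1381 were kept, 175 lost and 7 reversed. Dim spots limit the S4 values: 48 members were well above background on all RG S4 arrays and 56 on all TS S4 arrays. The sizes of differences that rest on dim groups are uncertain in either direction. With normexp the median member differed by -0.68 in IT S4 minus S3, against -1.95 in the main fit. For S4 minus S2 it differed by -1.65 against -3.63 in RG, and by -0.99 against -2.72 in TS.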
